A study of Mus musculus with 2 samples.

Results

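The complement components of fibroblasts were taken as 9 genes, C1ra, C1s, C2, C3, C4b, Cfb, Serping1, Cd55 and Cfd, through every probe set that the platform annotation assigns to exactly 1 of them. This gave 10 probe sets of the 45101 on the array, which read 6 of the 9 genes, with 3 probe sets each for C2 and Cd55 and 1 each for C1ra, C1s (listed as C1s1), Cfb and Serping1. C4b was read only by a probe set annotated jointly with C4a, and no probe set carries the name of C3 or Cfd in the annotation used here, so these 3 genes have no value of their own. The arrays compared quiescent mouse embryonic fibroblasts (MEFs), cells grown out of mouse embryos, of 2 genotypes. One array held RNA from MEFs with the p27delta51 allele and the other held RNA from wild type MEFs. The p27delta51 allele is a form of Cdkn1b known for lacking the amino-terminal, cyclin-dependent kinase-inhibiting part of p27. Cells of both genotypes were grown in medium with 10% fetal bovine serum and then starved of serum for 72 h. Because each genotype has a single array, nothing was tested, no value can be checked against replicates, and genotype and culture cannot be told apart. The labels used here do not say how many embryos each culture came from, nor at what passage it was taken.

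Complement is a cascade of blood and tissue proteins that marks surfaces for clearance or lysis. In the classical route C1q binds a target and activates the proteases C1r and C1s, which cleave C4 and C2 into a convertase that cleaves C3, while in the alternative route factor D cleaves factor B to form a second C3 convertase. Inhibitors hold each step back, among them the C1 inhibitor (Serping1) and the membrane-anchored decay-accelerating factor (Cd55). The liver makes most of the plasma proteins, and fibroblasts are known to make C1r, C1s and other components locally, in amounts that interferon and inflammatory cytokines raise.

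The proteases of the C1 complex lay well above background on both arrays and were higher in p27delta51, C1s by 2.57-fold and C1ra by 1.31-fold. The inhibitors Serping1 and Cd55 were lower in p27delta51, by at least 3.64-fold and 2.82-fold, and at background there. Signals are linear intensities as the authors deposited them. Background was judged by a control floor, set for each array by the brightest of 27 bacterial control probe sets, at 14.8 for p27delta51 and 11.8 for wild type. Of the 10 probe sets, 3 lay above the floor on both arrays, 5 on 1 array and 2 on neither. For genes with several probe sets the brightest was taken, and genes with a mean signal of at least 22.2 were kept, which held for 5 of the 6 measured components. Serping1 and Cd55 passed this limit only through their wild type signal, so the counts over kept components are descriptions. Of the 5 kept components, 1 was at least 2-fold higher in p27delta51, against 10.8% of 11159 kept genes, and 2 were at least 2-fold lower, against 8.77% of kept genes. Their median log2 difference, p27delta51 minus wild type, was 0.39, beside 0.079 for all kept genes. By the log2 ratios of the authors' deposited table the order turned, with a median of 0.0 for the components and 0.10 for all kept genes. With every measured gene entered and the dimmer signal set to no less than its floor, 1 of the 6 components was at least 2-fold higher, 2 were at least 2-fold lower and 3 were neither. The shares of all 18193 measured genes under that rule were 7.38% higher and 5.71% lower.

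**Figure D1:**
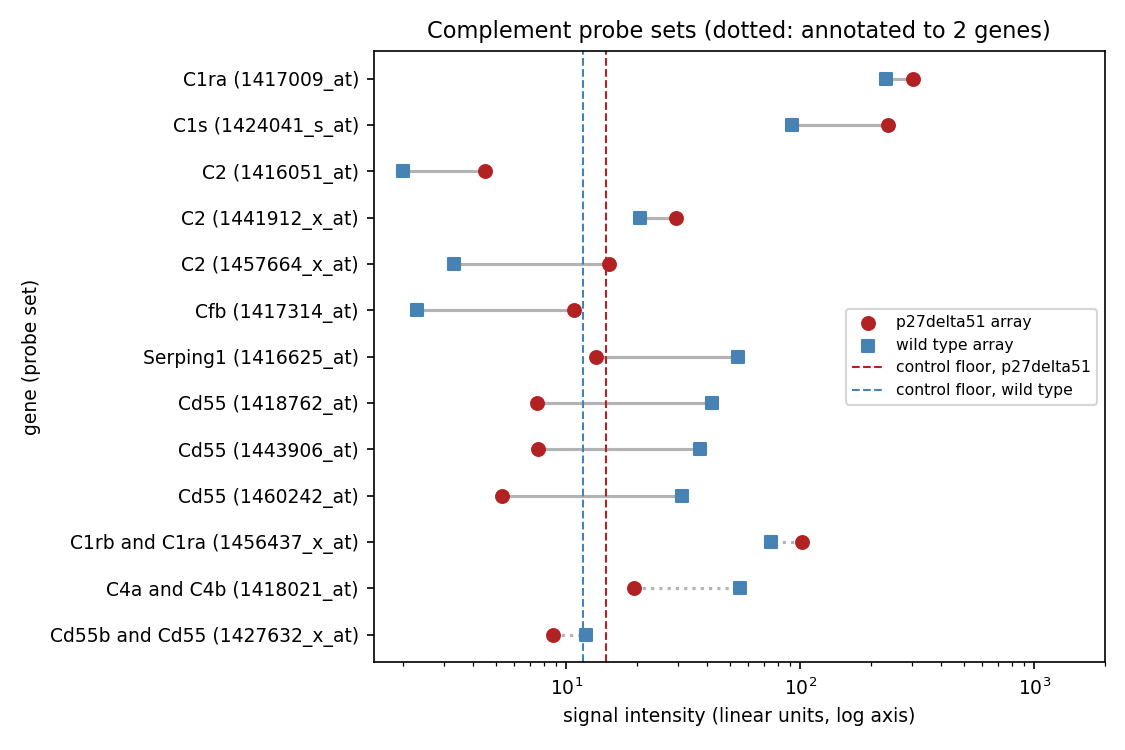
Signal intensity (log axis) of each complement probe set on the p27delta51 array (circles) and the wild type array (squares), with the control floor of each array as a dashed line. C1ra and C1s lie far above both floors, while the p27delta51 signals of Serping1 and Cd55, 5.3 to 13.4, lie below the floor of 14.8. Dotted lines join probe sets annotated to a pair of genes.

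C1ra and C1s, which encode the mouse proteases C1r and C1s of the classical route, lie side by side on chromosome 6 (GRCm38.p6), C1ra at 124512621 to 124523440 and C1s at 124530344 to 124542392, 6904 bases apart. The C1s signal was 237 in p27delta51, against 92.1 in wild type, so it was 2.57-fold higher, with a log2 difference of 1.36. Both signals were many times their floors, 16.0 times in p27delta51 and 7.81 times in wild type. Among kept genes with a mean signal of 100 to 500, a range set after the values were seen, 10.3% were higher and 7.03% lower by 2-fold or more. The C1ra signal was 304 in p27delta51, against 232 in wild type, 1.31-fold higher, or 0.39 as a log2 difference. In the authors' deposited table both genes carried an increase call, with log2 ratios of 1.1 for C1s and 0.3 for C1ra, and 13.9% of probe sets with 1 gene symbol carried that call. The log2 difference of C1ra lay between the lower and upper quartiles of all kept genes, -0.33 and 0.51, and did not reach 2-fold. A probe set annotated to both C1rb and C1ra gave 101 in p27delta51, against 75.2 in wild type, and was 1.35-fold higher. The mouse genome holds second copies of both genes, C1rb and C1s2, next to them, and neither copy had a probe set of its own here. The C1s probe set carries the suffix that Affymetrix gives to probes shared by several transcripts, so how much of its signal came from C1s2 was not tested.

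The promoter windows of these 2 neighbours are shown because C1ra and C1s were the components with signals well above background. Each runs from 250 bases before to 50 after a RefSeq transcript start, 5′ to 3′ on the gene's strand, and capitals mark matches to any of the motifs searched. The C1ra window is chr6:124512371-124512670 on the plus strand and the C1s window, the first of 2 in the table, is chr6:124542310-124542609 on the minus strand.
C1ra: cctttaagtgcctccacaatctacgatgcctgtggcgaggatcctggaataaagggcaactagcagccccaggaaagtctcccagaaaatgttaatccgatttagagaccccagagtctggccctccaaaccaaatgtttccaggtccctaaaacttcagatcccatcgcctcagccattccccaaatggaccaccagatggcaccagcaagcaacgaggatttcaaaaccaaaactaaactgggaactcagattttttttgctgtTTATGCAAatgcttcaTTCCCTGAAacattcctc
C1s: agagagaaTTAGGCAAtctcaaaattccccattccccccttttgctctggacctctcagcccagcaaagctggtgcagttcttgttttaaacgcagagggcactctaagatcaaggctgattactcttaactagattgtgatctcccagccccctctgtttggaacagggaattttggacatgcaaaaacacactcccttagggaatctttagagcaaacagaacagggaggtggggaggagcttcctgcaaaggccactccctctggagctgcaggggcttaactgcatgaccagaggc
The motifs, searched on both strands of each window, were TTCNNNGAA (STAT factors), GAAANNGAA (IRF factors), TTGCNNAA (C/EBP factors), GGNNTTTCC (NF-kB) and the GC box CCGCCC. The TATA box, TATAAA, was searched as well. The C1ra window held 1 C/EBP match, with its first base at position 17 of the transcript, and 1 STAT match, with its first base at position 33. The C1s window held 1 C/EBP match, whose first base lies 242 bases before the start. No other motif matched in either window. Over all 32851 promoter windows of the table, 10.8% held a C/EBP match, 8.30% a STAT match, 8.56% an IRF match, 5.82% an NF-kB match, 35.7% a GC box and 13.6% a TATA box. The matches are descriptions of these letters and not sites of binding.

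C2 and Cfb, which encode the protease subunits of the classical and alternative C3 convertases, were at or near background on both arrays. The genes lie 88 bases apart on chromosome 17, Cfb at 34856374 to 34862514 and C2 at 34862602 to 34882100. Cfb gave 10.8 in p27delta51 and 2.3 in wild type, below the floor on both arrays, so no fold is given. The brightest C2 probe set gave 29.4 in p27delta51, against 20.7 in wild type, and was 1.42-fold higher, with both signals within 2 times of their floors. The authors' deposited table put its log2 ratio at 0. Another C2 probe set gave 15.2 in p27delta51, against 3.3 in wild type, and was higher by at least 1.29-fold. The third gave 4.5 in p27delta51, against 2.0 in wild type, and both signals were below the floor. Only the brightest C2 probe set lay above the floor on both arrays, so no common direction is read from this pair. All 4 probe sets carried a no-change call in the authors' deposited table.

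C4b encodes C4, the substrate of C1s and the partner of C2 in the classical convertase. It was read only by a joint probe set with C4a. This probe set gave 19.5 in p27delta51, against 55.3 in wild type, and was 2.84-fold lower, with the p27delta51 signal at 1.32 times its floor. The authors' deposited table gave a log2 ratio of -1.1 and a no-change call. In the mouse C4a and C4b are near-identical copies, and the signal belongs to neither alone. How much of it, or of its difference, came from C4a was not tested, so it is not a reading of C4b. C4b lies on chromosome 17 at 34728139 to 34743902.

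Serping1 encodes the C1 inhibitor, a serpin that inactivates C1r and C1s, and lies on chromosome 2 at 84765360 to 84775444. Its signal was 13.4 in p27delta51, against 53.9 in wild type. The p27delta51 signal was just below its floor, so Serping1 was at least 3.64-fold lower in p27delta51, with a log2 difference of -2.01 between the signals as deposited. The authors' deposited table gave a log2 ratio of -1.9 and a decrease call, which 11.8% of probe sets with 1 gene symbol carried. Serping1 was lower where C1s, whose product it inhibits, was 2.57-fold higher. C1ra, whose product it also inhibits, was 1.31-fold higher, which lay between the quartiles of all kept genes.

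Cd55 encodes decay-accelerating factor, which dissociates C3 convertases on the cell's own surface, and lies on chromosome 1 at 130429798 to 130465009. Its 3 probe sets gave 7.5, 7.6 and 5.3 in p27delta51 and 41.8, 37.4 and 31.3 in wild type. All 3 were below the floor in p27delta51 and at 2.65 to 3.54 times the floor in wild type. Set against the floor, Cd55 was lower in p27delta51 by at least 2.82-fold, 2.53-fold and 2.11-fold. The log2 differences of the signals as deposited were -2.48, -2.30 and -2.56, with an SD of 0.13 between the 3 probe sets, which share 1 RNA and are not replicates. All 3 carried a decrease call in the authors' deposited table, with log2 ratios of -2.5, -2.1 and -2.5. A joint probe set of Cd55 and its second copy Cd55b gave 8.8 in p27delta51, below the floor, and 12.1 in wild type, 1.03 times the floor. Dim genes differ more often: among kept genes with a mean signal under 50, 15.0% were lower and 16.6% higher by 2-fold or more. In bulk RNA, fewer cells that express Cd55 or Serping1 and less RNA per cell cannot be told apart.

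The Cd55 window, chr1:130462695-130462994 on the minus strand, is shown beside the windows of the proteases, with the same motifs in capitals. It lies wholly inside the gene, whose outer start on this strand is at 130465009, so it belongs to an internal transcript start. The C1ra and C1s windows reach past the outer starts of their genes, so the windows are not alike in place.
Cd55: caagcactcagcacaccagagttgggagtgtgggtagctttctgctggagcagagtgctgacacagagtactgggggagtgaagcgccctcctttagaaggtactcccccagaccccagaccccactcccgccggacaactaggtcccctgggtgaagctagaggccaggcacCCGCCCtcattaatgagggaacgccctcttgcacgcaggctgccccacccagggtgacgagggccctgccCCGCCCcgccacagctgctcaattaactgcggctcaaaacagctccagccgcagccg
It held 2 GC boxes, whose first bases lie 77 and 7 bases before the start, and none of the other motifs. The promoter table has no window for C2, C4b, Cfb or Serping1, and promoters come from RefSeq on GRCm38.p6.

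**Figure D2:**
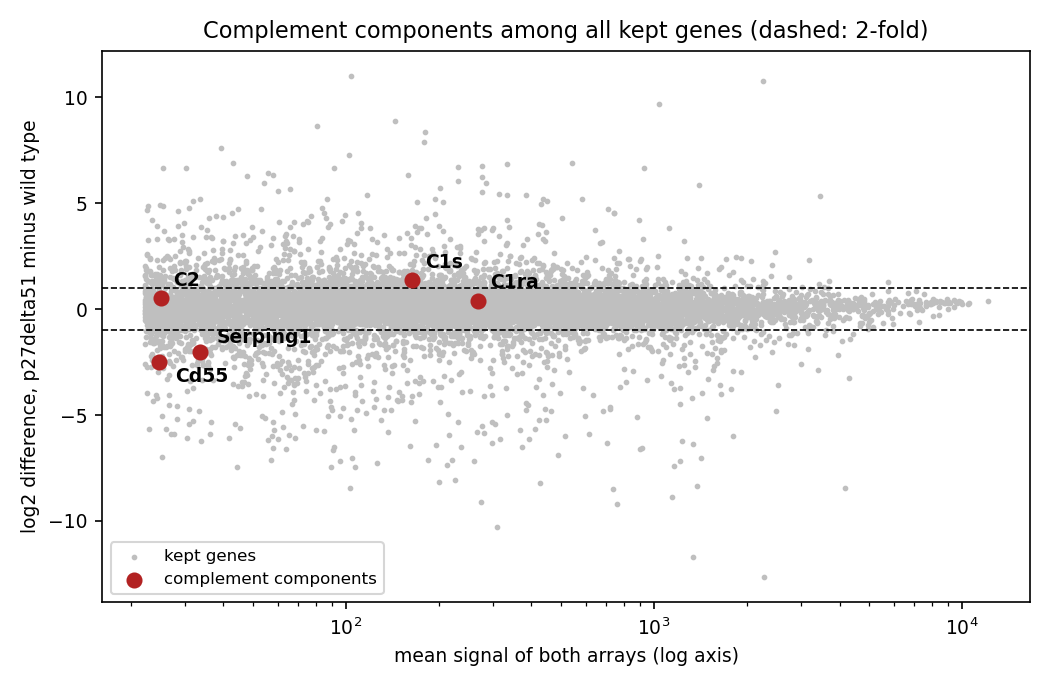
Log2 difference between p27delta51 and wild type against the mean signal of both arrays (log axis) for the 11159 kept genes (grey) and the 5 kept complement components (red), with dashed lines at 2-fold. C1s lies above the upper line, Serping1 and Cd55 below the lower line and at the dim end, and C1ra and C2 between the lines.

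Further complement genes were read through lists by role. Of 15 measured regulators, Serping1 and Cd55 included, 5 were at least 2-fold lower in p27delta51 against the floor and 0 at least 2-fold higher, beside the shares of 5.71% and 7.38% given above. This grouping was made after the values were seen. C4bp, the chain of the C4b-binding protein that assists in degrading C4b, gave 9.8 in p27delta51, against 238 in wild type, and was lower by at least 16.1-fold. Cfi, the factor I protease that degrades C3b and C4b, gave 7.8 in p27delta51 against 85.4 in wild type, at least 5.77-fold lower. Cd59a, which blocks the membrane attack complex, gave 107 in p27delta51 against 253 in wild type, 2.37-fold lower, and its second probe set gave 143 in p27delta51 against 216 in wild type, 1.51-fold lower. Cr1l, the rodent membrane regulator also called Crry, gave 392 in p27delta51 and 396 in wild type. Cd46 gave 24.9 in p27delta51 against 31.8 in wild type. Clu, the clusterin gene, gave 101 in p27delta51 against 92.9 in wild type, with 2 of its 4 probe sets on each side. The remaining regulators included 5 that were at or below the floor on both arrays.

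Of 23 measured components that start or carry out the cascade, C1ra, C1s, C2 and Cfb included, 2 were higher in p27delta51 by 2-fold or more, 0 were lower by that much, and 9 were at or below the floor on both arrays. The shares over all measured genes were 7.38% and 5.71%, so the number higher was near the background. C4a and C4b are not in this tally, because their joint probe set, which was 2.84-fold lower, belongs to a pair of genes. The second gene besides C1s was Colec12, a collectin that also acts as a scavenger receptor, at 771 in p27delta51, against 197 in wild type, which was 3.92-fold higher. Masp1, which encodes proteases of the lectin route, gave 450 in p27delta51 against 652 in wild type, 1.45-fold lower. Fcnb, a ficolin gene, gave 17.9 in p27delta51 against 29.7 in wild type and Mbl1, a mannose-binding lectin gene, 26.9 in p27delta51 against 20.4 in wild type, all within 3 times of the floor. The C1q chains C1qa, C1qb and C1qc, made mainly by macrophages, were at or below the floor on both arrays, at no more than 9.0 in p27delta51 and 10.4 in wild type. Among 7 terminal components and properdin, Cfp, the properdin gene, was the only kept gene, at 56.7 in p27delta51 against 42.3 in wild type. Hc, which encodes C5, and C8b and C9 were below the floor on both arrays. Of 8 measured complement receptors, 5 were at or below the floor on both arrays and 0 differed 2-fold. C1qbp, a mitochondrial protein that also binds C1q, gave 2856 in p27delta51 and 3141 in wild type.

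**Figure D3:**
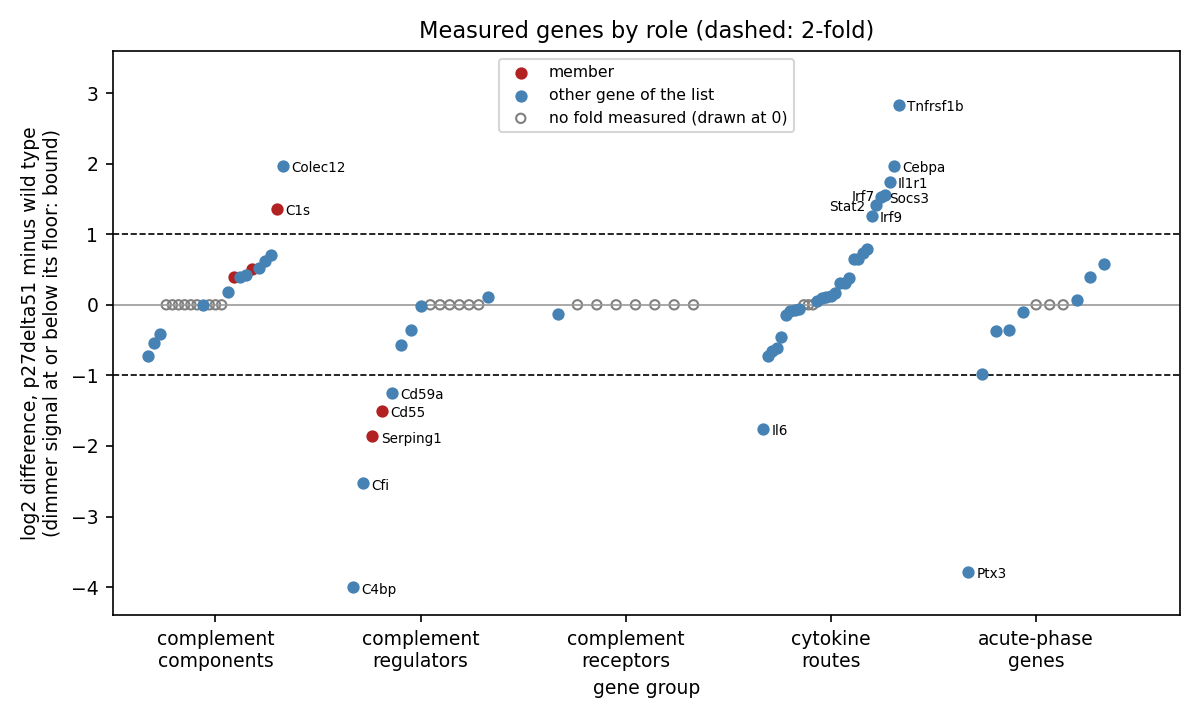
Log2 difference between p27delta51 and wild type for each measured gene by role, with a dimmer signal at or below its floor replaced by a bound against the floor. The 5 regulators below the lower dashed 2-fold line are C4bp, Cfi, Serping1, Cd55 and Cd59a, and the 2 components above the upper line are Colec12 and C1s. Red points are C1ra, C1s, C2, Serping1 and Cd55, and open circles at 0 are genes for which no fold was measured.

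Genes of the cytokine routes known to induce complement lay on both sides. Of 28 kept genes of this list, 7 were higher and 1 was lower by 2-fold or more, and the median log2 difference was 0.23, beside shares of 10.8% higher and 8.77% lower and a median of 0.079 among all kept genes. The highest was Tnfrsf1b, a tumour necrosis factor receptor gene, at 333 in p27delta51, against 46.7 in wild type (7.13-fold), with a dimmer probe set at 90.2 in p27delta51 against 33.2 in wild type (2.72-fold). Next were the transcription factor gene Cebpa at 159 in p27delta51 against 40.6 in wild type (3.90-fold) and Il1r1, the interleukin 1 receptor gene, at 261 in p27delta51 against 78.0 in wild type (3.34-fold). The other 4, named after their values were seen, were Irf7, Socs3, Stat2 and Irf9, at 2.94-fold, 2.90-fold, 2.66-fold and 2.40-fold higher. Il6 gave 0.4 in p27delta51, at background, against 50 in wild type, and was lower by at least 3.38-fold. Cebpd gave 305 in p27delta51 against 505 in wild type and Stat3 924 in p27delta51 against 1450 in wild type. Among 4 kept acute-phase genes, Ptx3, a pentraxin that binds C1q, gave 241 in p27delta51 against 3317 in wild type, 13.7-fold lower, although a dimmer probe set gave 19.0 in p27delta51 against 31.8 in wild type. Lbp gave 164 in p27delta51 against 322 in wild type, and its dimmer probe set was lower by at least 3.36-fold. Cp gave 76.5 in p27delta51 against 58.0 in wild type by the brightest of 8 probe sets, which lay on both sides. Hpx gave 23.7 in p27delta51 against 22.5 in wild type.

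Neighbours of the components on the chromosome were set beside them, 5 protein-coding genes to each side. Around C1ra and C1s, 0 of 5 kept neighbours differed 2-fold, with log2 differences between -0.16 and 0.56. C1s lies 10.4 Mb and 169 protein-coding genes from Cdkn1b on the same chromosome. Around C4b, Cfb and C2, 1 of 12 kept neighbours was at least 2-fold higher, Zbtb12 at 104 in p27delta51 and 27.3 in wild type, and 0 were lower. Around Serping1, 2 of 8 were at least 2-fold lower, Rtn4rl2 at 16.1 in p27delta51 against 72.3 in wild type and Slc43a1 at 26.9 in p27delta51 against 83.1 in wild type. Around Cd55, 2 of 5 differed: C4bp, in the same cluster of complement regulators, was lower, and Mcm6, a replication licensing gene, was 2.40-fold higher at 1318 in p27delta51 against 549 in wild type. Over all 9 genes, 2 of 41 kept neighbours were higher and 3 lower by 2-fold or more. Among all kept genes the shares were 10.8% higher and 8.77% lower, and no locus was tested against them.

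**Figure D4:**
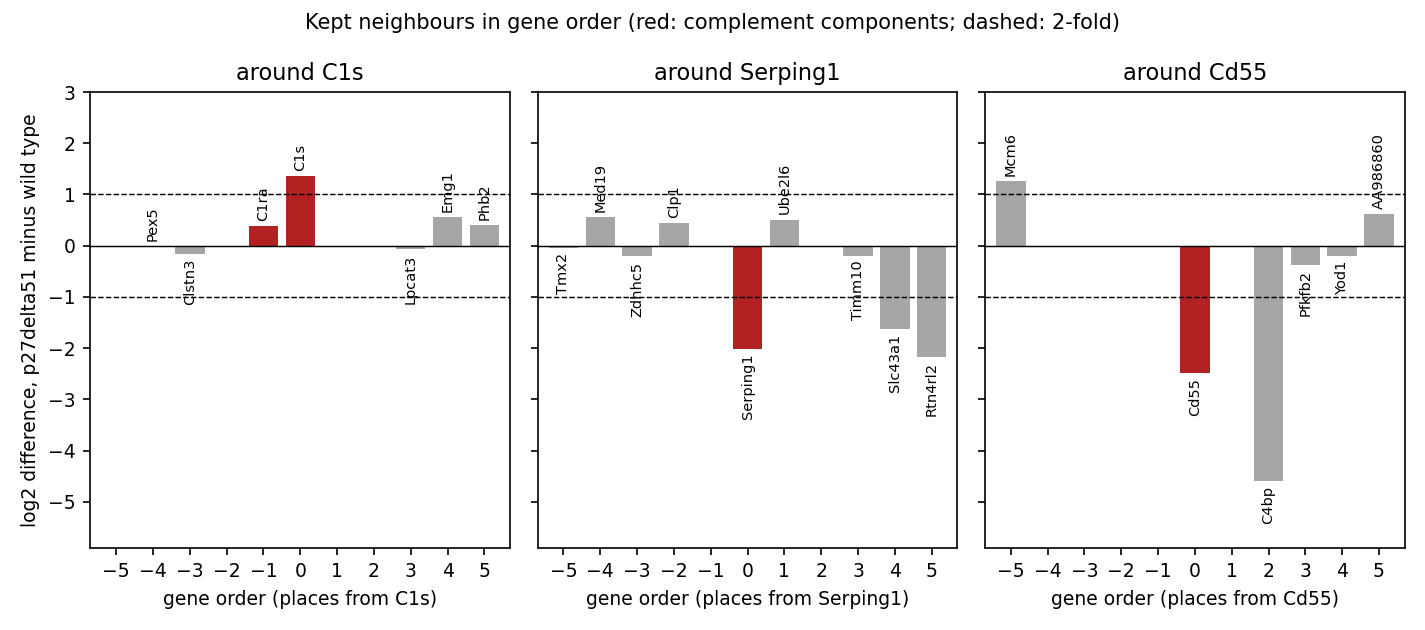
Log2 difference between p27delta51 and wild type (signals as deposited) of C1s, Serping1 and Cd55 (red) and of their kept neighbours by place in the gene order (grey, C1ra red), with dashed lines at 2-fold. Neighbours of C1s lie between the lines, and C4bp lies below Cd55. The p27delta51 signals of Serping1, Cd55 and C4bp were below the floor, so the length of their bars is not measured.

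The identity of the cultures was read from markers. Of 10 fibroblast markers, 9 lay above the floor in p27delta51 and 10 in wild type, and their summed signal was 46857 in p27delta51 and 45355 in wild type. Col1a1 gave 7275 in p27delta51 against 7569 in wild type, whereas Pdgfra gave 529 in p27delta51 against 138 in wild type and Thy1 18.6 in p27delta51 against 279 in wild type. Lum, at 14.8 in p27delta51 and 107 in wild type, was at least 7.25-fold lower, and Col5a1 was 2.35-fold lower. Macrophage markers summed to 248 in p27delta51 and 206 in wild type, with 6 of 10 above the floor in p27delta51 and 7 of 10 in wild type. Ptprc, Aif1 and Tyrobp were at or below the floor on both arrays. Cd68 gave 18.6 in p27delta51 against 15.4 in wild type and Adgre1 18.7 in p27delta51 against 15.1 in wild type. These 4 signals lay just above the floor, and both genes were named after their values were seen. Csf1r gave 56.5 in p27delta51 against 65.0 in wild type by its brightest probe set, but its other 2 probe sets were at least 5.46-fold and 5.99-fold lower, and Cd14 gave 86.9 in p27delta51 against 32.2 in wild type. Lyz2 gave 19.7 in p27delta51 against 30.4 in wild type and Laptm5 28.1 in p27delta51 against 23.0 in wild type. Hepatocyte markers had no kept gene of 9 measured, with Alb below the floor on both arrays. They summed to 107 in p27delta51 and 82.1 in wild type, with 4 of 9 above the floor in p27delta51 and 1 of 9 in wild type. Cps1 gave 23.6 in p27delta51 against 11.5 in wild type, at least 2-fold higher, and Hnf4a 19.0 in p27delta51 against 22.9 in wild type. Both were named after their values were seen. Adipocyte markers summed to 124 in p27delta51 against 135 in wild type, with 1 of 9 above the floor in p27delta51 and 4 of 9 in wild type. Fabp4 gave 82.0 in p27delta51 against 32.4 in wild type by its brightest probe set. Its dimmer probe sets were 1.91-fold higher, 1.34-fold higher and below the floor on both arrays. Pparg gave 1.5 in p27delta51, below the floor, against 48.9 in wild type, with a no-change call in the authors' deposited table. Endothelial markers summed to 134 in p27delta51 against 139 in wild type, with 3 of 10 above the floor in p27delta51 and 7 of 10 in wild type, and Pecam1 and Cdh5 below the floor on both arrays. Tek gave 7.9 in p27delta51 against 28.2 in wild type, and Esam 4.1 in p27delta51 against 16.5 in wild type, both named after their values were seen. Egfl7 gave 51.1 in p27delta51 against 19.1 in wild type by its brightest probe set, while 2 of its other 3 probe sets were 1.21-fold and 1.23-fold higher and the third at least 3.43-fold higher. The part of the marker differences in the complement values was not tested. Xist, the transcript that coats the inactive X chromosome, gave 876 in p27delta51 against 25.8 in wild type and the Y-linked Kdm5d 1.2 in p27delta51 against 213 in wild type, so the sex of the cultures and their genotype cannot be told apart. Cdkn1b itself gave 1.6 in p27delta51 against 62.0 in wild type by 1 probe set and 1016 in p27delta51 against 542 in wild type by the other, and neither was placed inside or outside the deleted part here.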

How the data were processed

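Per the labels' protocols, biotin-labelled RNA of each genotype was prepared for Affymetrix arrays, 1 per genotype. The deposited value table holds a linear signal intensity for each of 45101 probe sets. The submitters' processing notes name RMA and affy, but the deposited intensity values are linear and share a trimmed mean (2% off each end) of 150.0, so they are not RMA log2 values. The program behind them was not given in the sources used here. Log2 was taken of each signal, a signal of 0 being entered as 0.1. The authors also deposited a log2 ratio for each probe set with its call and p-value of change, per the file headers, which compare 2 arrays and not 2 genotypes; no p-value is printed. The number of unused sample columns was 0.

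Gene names of probe sets came from GEO's platform annotation, and symbols were brought up to date through the RefSeq genes of GRCm38.p6; 34945 carried 1 symbol (34741 found in that table), 932 several and 9160 none, and 64 were controls. Each of 18193 genes was represented by its brightest probe set, and the 11159 genes that reached the median brightness of all probe sets were kept. Where the dimmer signal was at or below the control floor, the fold is a lower bound. In p27delta51 58.6% and in wild type 62.6% of probe sets exceeded the floor; the number of arrays limits the precision.

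The complement genes, the other lists, the motifs and the rules were chosen with earlier results of these data known. Every probe set of the components was to be named, with up to 3 kept genes in each direction from each other list, neighbours past 2-fold, and Cdkn1b. The gene-level step was tested on simulated data. Alternatives covered scaling, pseudocount, brightness filter, choice of probe set, source of the ratio, low signals and fold threshold. Python 3.11.15, pandas 2.3.3 and statsmodels 0.14.6 (loess) were used.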

Additional observations from a re-analysis of the deposited data

Results flagged for a closer look

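The joint probe set of C1rb and C1ra was picked out as a signal outside the components' own probe sets that lay above the wild type level, at 101.3 in p27delta51 and 75.2 in wild type. The signals were 6.84 times the floor in p27delta51 and 6.37 times in wild type, and the difference was not tested.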

How the results depend on the processing

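Under quantile normalization, median centring and loess, 1 component was higher and 2 were lower by 2-fold or more, as reported. The same held with the authors' deposited ratio and with a choice of probe sets by mean log2 signal. Signals raised to the floor gave these counts by construction. A kept gene at or below its floor on 1 array is at least 2-fold brighter on the other, raised or not. With 32 added to each signal before log2, 0 components were lower by that much, and likewise 0 with the upper-quartile filter, under which 2 components were kept. The number higher became 2 with no brightness filter, Cfb being added from signals below the floor, 2 when all probe sets of a gene were averaged, C2 being added, and 0 at a 3-fold threshold. The median log2 difference of the components was 0.0 by the authors' deposited ratio and 0.88 with the upper-quartile filter. The difference of Serping1 ranged from -2.09 to -0.92 and that of Cd55 from -2.56 to -0.90 over the alternatives, both smallest with 32 added, which shrinks dim signals by construction. C1s stayed between 1.10 and 1.36. Regulators lower by 2-fold or more, recomputed after seeing the data, numbered 3 with 32 added, 1 with the upper-quartile filter and 7 with no filter, against 5. Over the alternatives, regulators higher by the threshold numbered up to 3, against 0. Components that start or carry out the cascade numbered up to 5 lower, against 0, and up to 5 higher, against 2. Counts with no filter include genes at or below the floor on both arrays. Scaling brought the median over kept genes, 0.079 as reported, to between 0.013 and 0.042. Over all genes, 2805 were higher and 2581 lower by 2-fold or more without a filter, against 1200 and 979. These counts were 752 and 692 with 32 added, 559 and 461 with the upper-quartile limit, 2421 and 1773 at 1.5-fold, and 533 and 581 at 3-fold. No paired analysis was possible because each genotype has 1 array.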
